A study of Mus musculus with 6 samples.

Results

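The machinery that carries proteins into the endoplasmic reticulum (ER), cuts their signal peptides and adds their N-linked glycans was followed through 32 genes, in RNA-seq of acinar cells from the mouse pancreas. The genes were chosen by name and function, with earlier results of these data known, and all 32 were found among the 55367 gene symbols counted. They comprise the Sec61 channel (4 genes), its partners (4 genes), the translocon-associated protein complex TRAP (4 genes), the signal recognition particle SRP with its receptor (6 genes), signal peptidase (5 genes) and oligosaccharyltransferase (9 genes). All 6 libraries formed 1 group, from untreated mice that carried Pdx1-Cre and Klf5-mCherry-CreERT2, with no age given. Pdx1 drives Cre in the pancreatic epithelium, so the first transgene is not limited to acinar cells, and no library of another genotype was analysed here. Each library was made from 300 cells sorted for GFP, although the genotype names no GFP reporter, by Smart-seq2 with changes to the lysis and RNA clean-up and with 12 preamplification cycles. The series states only that the expression pattern of acinar cells was to be examined, so the comparisons made here are between genes within libraries and between libraries.

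Proteins destined for secretion carry a signal peptide that SRP recognises as it leaves the ribosome, and SRP delivers the ribosome to its receptor on the ER. The growing chain then passes through the Sec61 channel, signal peptidase removes the signal peptide, and oligosaccharyltransferase transfers a preassembled glycan to asparagine residues. Acinar cells are dense in rough ER and secrete digestive enzymes, nearly all of which take this route.

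Total counts per library were 7053088, 5552288, 6367427, 6805339, 4670819 and 7072270 in replicates 1 to 6, and a count of 0 allowed up to 3 counts, or 0.424 to 0.642 when scaled to library size (CPM), a limit that covers counting error only. A number in the names of the deposited libraries, with no stated meaning, parted replicates 4 to 6 (called set B) from replicates 1 to 3 (called set A), and this split was handled as a batch that may or may not be real, since the study defines no such groups. Ribosomal RNA genes took 58.9% to 60.1% of the counts in set B and 37.4% to 45.8% in set A. Background, taken from olfactory and vomeronasal receptor genes and given in counts per Mb of their span, was 52.2, 327 and 109 in set B, against 26.4, 26.7 and 39.4 in set A, so that replicate 5 stood apart from the others. All 10 acinar markers reached 1 TPM (counts per kb of exon, scaled to the total of all genes) in all 6 libraries. Their summed level was 135099 to 234429 TPM in set B and 384515 to 438577 TPM in set A. Endocrine markers summed to 1002, 41.1 and 2225 TPM in replicates 4 to 6 of set B. In set A they summed to 9.44 to 39.7 TPM, and in all libraries 1 of 10 (Neurod1) had 0 counts. Ductal markers summed to 184, 80.2 and 56.9 TPM in replicates 4 to 6, against 74.8 to 109 TPM in set A. Endothelial markers had 1.41, 12.3 and 4.68 TPM, against 0.821 to 1.98 TPM. Macrophage markers had 2.21, 12.4 and 2.74 TPM, against 2.53 to 3.41 TPM, and fibroblast and stellate markers 9.57, 16.6 and 4.25 TPM, against 1.97 to 21.1 TPM. Plasma and B cell markers summed to 1.04 to 3.90 TPM in set B and 1.01 to 1.59 TPM in set A, with 3 of 8 (Mzb1, Igkc and Ms4a1) at 0 counts. The exons of these 4 genes lie 99.9% to 100% within other genes, so their zeros leave their expression unknown. In libraries of pooled cells, fewer cells of a type and less RNA per cell cannot be told apart. Whether each library had its own animal is not stated in the labels, and p-values across libraries cover only the spread between these samples, which may be technical.

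Nearly all of the 32 chosen genes were detected, at levels far below those of the enzymes this machinery handles. Of the 32 genes, 31 had at least 1 TPM in all 6 libraries, a level that 17.1% of 21950 protein-coding nuclear genes reached, and 15 had at least 10 TPM in all 6, against 2% of those genes. Without replicate 5 the counts were 31 genes (17.9% of all) and 17 genes (2.33% of all). None of the 32 reached 100 TPM in every library, which 0.292% of genes did. The acinar markers together had 299, 240 and 259 TPM per summed TPM of the 32 genes in replicates 4, 5 and 6 of set B, and 625, 529 and 589 in replicates 1, 2 and 3 of set A. The counted intervals were whole gene spans with introns, and in 27 of the 32 genes the counts exceeded 3 times the expected background in every library, as in 12.3% of protein-coding genes. The 5 that did not were Sec61a2, Sec63, Sec11a, Stt3b and Tusc3. The first 4 failed in replicate 5 alone and Tusc3 in other libraries as well, and in replicate 5 the expected background was 99.8%, 39.3%, 34.2%, 55.4% and 173% of their counts, in that order.

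**Figure D1:**
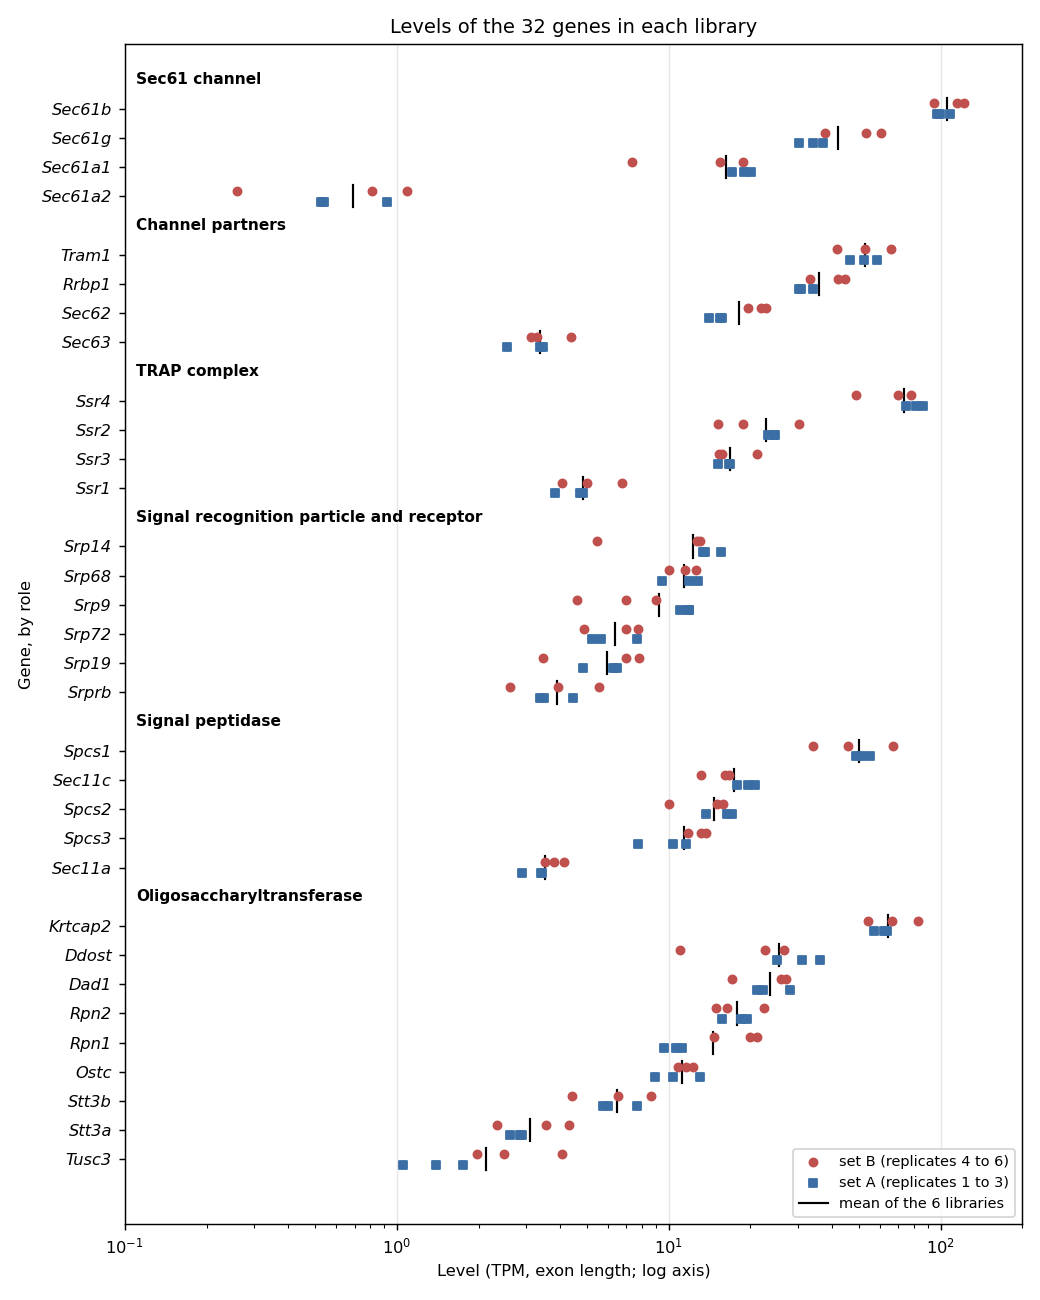
Level of each of the 32 genes in TPM on a log axis, by role, with 1 point per library (set B and set A) and a bar for the mean of 6 libraries. Sec61b stands highest at 106 TPM and Sec61a2 lowest at 0.693 TPM.

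The Sec61 channel, the pore itself, summed to 165 ± 23.3 TPM (SD, n = 6), 23.3% of the summed level of the 32 genes. Most of this came from the small subunits. Sec61b, the beta subunit (chromosome 4, 47474658 to 47483242, build mm10), had 99.2, 108, 97.0, 122, 94.6 and 115 TPM in replicates 1 to 6 and was the highest of all 32 genes, 94th among protein-coding genes by its mean. It was the only member whose range lay apart from that of its neighbour in the order of levels, the next gene being Ssr4. Sec61g, the gamma subunit, averaged 42.0 ± 12.0 TPM. Sec61a1, the alpha subunit that forms the pore, had 20.1, 18.9, 17.1, 18.8, 7.33 and 15.5 TPM in replicates 1 to 6. Replicate 5 was the low library for Sec61a1, whereas its Sec61b value was close to those of replicates 1 and 3. Sec61a2, the paralogue of Sec61a1, had 0.542, 0.925, 0.525, 0.258, 0.815 and 1.09 TPM and stood at the bottom of the list, with the expected background making up 22.5% of its counts.

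Among the channel partners, which summed to 110.2 ± 15.1 TPM, Tram1 was highest. Tram1, a membrane protein that nascent chains contact beside the channel (chromosome 1, 13564698 to 13589910), had 52.3, 58.4, 46.5, 52.9, 41.5 and 65.9 TPM in replicates 1 to 6. Rrbp1, a ribosome-binding protein of the rough ER, averaged 35.7 ± 6.07 TPM. Sec62 and Sec63 serve the post-translational route, in which finished short chains enter through the same channel, and they differed widely in level. Sec62 had 15.4, 15.7, 14.1, 19.5, 21.8 and 22.8 TPM and Sec63 had 2.54, 3.44, 3.37, 4.37, 3.13 and 3.27 TPM in replicates 1 to 6, with no overlap between the genes.

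The TRAP complex, which sits beside the channel and assists the entry of some signal peptides, summed to 118 ± 17.5 TPM. Ssr4, its delta subunit (chromosome X, 73787028 to 73790830), supplied most of it with 81.2, 86.1, 74.8, 78.0, 48.9 and 69.9 TPM in replicates 1 to 6. Replicate 5 was again the lowest. The beta subunit Ssr2 averaged 22.7 ± 5.16 TPM, the gamma subunit Ssr3 16.8 ± 2.21 TPM and the alpha subunit Ssr1 4.86 ± 1.04 TPM. The 4 subunits of this complex therefore did not stand at equal levels, the range of Ssr4 lying above those of the other 3.

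The genes of SRP and its receptor summed to 49.2 ± 8.94 TPM or 6.92% of the total, the lowest of the 6 roles with exon length in each library. Srp14, which with Srp9 binds the Alu domain of the particle's RNA and slows elongation, was highest with exon length (chromosome 2, 118475850 to 118479711), with 13.4, 13.7, 15.6, 13.1, 5.46 and 12.8 TPM in replicates 1 to 6. Srp9 had 11.9, 11.9, 11.0, 6.98, 4.62 and 9.004 TPM, and both genes were lowest in replicate 5. The order of this pair turned with the length used, Srp9 having 33.4 TPM and Srp14 16.5 TPM by principal transcript (a length chosen after seeing the data). Srp68 and Srp72 form the heterodimer of the S domain. Srp68 had 12.9, 11.9, 9.46, 12.6, 10.04 and 11.5 TPM and Srp72 had 5.21, 7.66, 5.65, 6.97, 4.89 and 7.70 TPM. Srp19, which helps assemble the particle, averaged 5.96 ± 1.56 TPM, and Srprb, the membrane-anchored beta subunit of the receptor, 3.89 ± 1.01 TPM.

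Signal peptidase genes summed to 97.2 ± 14.1 TPM. Spcs1, a small non-catalytic subunit (chromosome 14, 30999826 to 31001672), led with 48.9, 54.9, 50.9, 45.6, 34.0 and 67.0 TPM in replicates 1 to 6. The accessory subunits Spcs2 and Spcs3 averaged 14.7 ± 2.57 and 11.4 ± 2.17 TPM. The complex exists in forms with either of its catalytic subunits, Sec11c or Sec11a. Sec11c had 20.7, 19.6, 17.8, 16.1, 13.1 and 16.6 TPM and Sec11a had 3.42, 3.40, 2.89, 3.77, 4.14 and 3.50 TPM, so that Sec11c lay above Sec11a in every library.

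Oligosaccharyltransferase, the role with the most genes, summed to 169 ± 23.7 TPM or 23.8% of the total, and the Sec61 channel lay above it in replicates 5 and 6. Krtcap2 (chromosome 3, 89245966 to 89249906), a small subunit of the form that works beside the channel, led with 61.9, 63.5, 57.0, 82.6, 54.2 and 66.5 TPM in replicates 1 to 6. Of its exon length, 22.6% lies within other genes, the highest share in the list. Ddost, a structural subunit, had 31.1, 36.1, 25.0, 26.6, 11.0 and 22.7 TPM, with replicate 5 far below the rest. Dad1, another structural subunit, averaged 23.6 ± 4.13 TPM, and Ostc, which links the enzyme to the channel, 11.2 ± 1.46 TPM. The ribophorin genes differed in their spread, with 9.64, 11.2, 10.6, 21.2, 14.7 and 19.97 TPM for Rpn1 and 19.4, 18.4, 15.7, 16.5, 14.9 and 22.4 TPM for Rpn2 in replicates 1 to 6. The catalytic subunits were among the lowest genes. Stt3a, of the form coupled to translocation, had 2.62, 2.84, 2.89, 3.53, 2.34 and 4.30 TPM, and Stt3b, of the form that also modifies chains after their release, had 5.98, 5.73, 7.65, 6.50, 4.41 and 8.62 TPM. Tusc3, an oxidoreductase subunit of the Stt3b form, had 1.05, 1.76, 1.40, 1.98, 4.07 and 2.48 TPM, but the expected background amounted to 68.0% of its counts.

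The order of these levels rested on the length used. Exon length here joins the exons of all annotated transcripts, and with the length of the principal transcript alone Ssr4 led with 264 TPM and Sec61b had 213 TPM. Sec11c stood at 122 TPM by principal transcript against 17.3 TPM by joined exons, and Srp9 at 33.4 TPM against 9.24 TPM, which put both among the 9 highest genes. The order of the roles moved too. By principal transcript TRAP summed to 322 TPM, the Sec61 channel to 295 TPM, signal peptidase to 261 TPM and oligosaccharyltransferase to 203 TPM. Sec11c then led signal peptidase and Rrbp1 the channel partners, whereas Sec61b, Ssr4 and Krtcap2 led their roles on each scale tried. The 8 highest genes shared 6 to 8 members with the order above under each of the 6 other scalings. The lowest genes, Sec61a2, Stt3a and Tusc3, stayed in the last 4 places by principal transcript.

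Several steps of the pathway are served by a pair of paralogues or fixed partners, and these were compared within each library as differences in log2(TPM + 1), by the exact two-sided sign-flip test with Benjamini-Hochberg adjustment over the 9 pairs. With 6 libraries the smallest exact p is 0.031. For 8 pairs the difference had the same sign in 6 of 6 libraries, each with an exact p of 0.031, or 0.035 when adjusted. The major paralogue was clear in 3 pairs. Sec61a1 exceeded Sec61a2 by 3.31 ± 0.64, Sec11c exceeded Sec11a by 2.01 ± 0.33 and Tram1 exceeded Tram2, its paralogue outside the 32 genes, by 4.81 ± 0.81 (log2, mean ± SD, n = 6). Tram2 had 0.237, 0.635, 0.681, 0.842, 3.50 and 0.661 TPM in replicates 1 to 6, with the background at 39.5% of its counts. In the oxidoreductase pair, Tusc3 minus Magt1 was -2.73 ± 0.34, since Magt1, the alternative subunit, had 14.3, 15.6, 14.8, 24.8, 21.4 and 24.8 TPM. Sec62 exceeded Sec63 by 2.13 ± 0.30. All 5 of these differences kept their sign on every scale tried.

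The remaining pairs were smaller or depended on the scale. Stt3a minus Stt3b was -0.87 ± 0.17 with exon length, 0.36 with gene span as the length and 0.014 without length scaling. Srp9 minus Srp14 was -0.38 ± 0.26 with exon length and positive by span, CPM and principal transcript (0.69, 1.66 and 0.97), and Srp68 minus Srp72 was 0.76 ± 0.24 with exon length, -0.26 by span and -0.19 by CPM. These 3 pairs are therefore given with no order between the partners. Rpn1 minus Rpn2 was -0.33 ± 0.47, above 0 in 1 of 6 libraries (exact p = 0.156), and it was 0.65 by span.

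**Figure D2:**
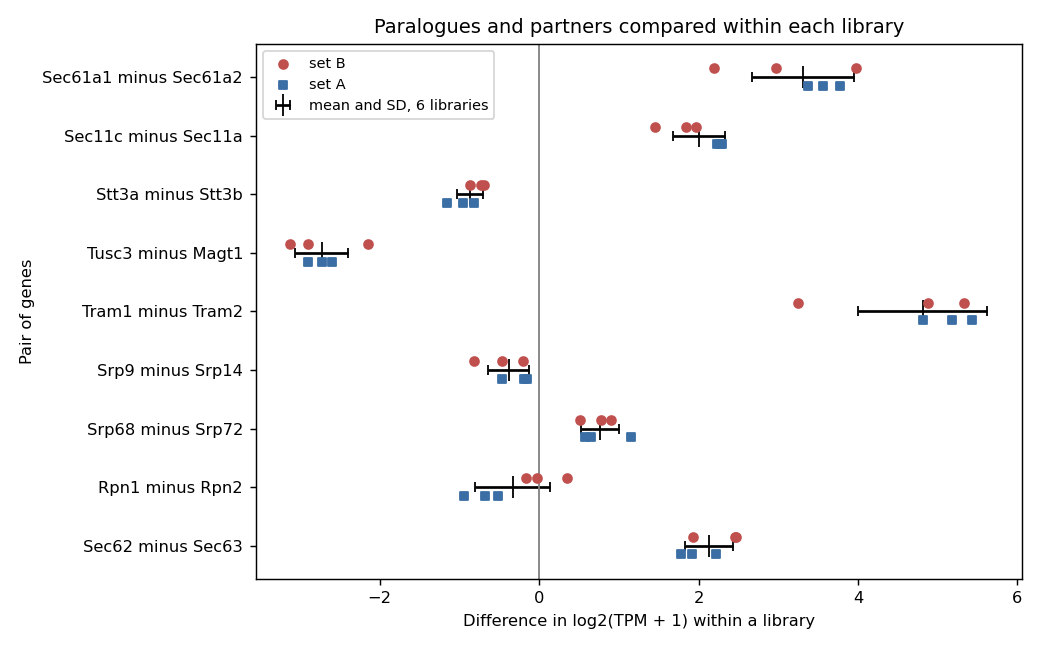
Differences between paired genes in log2(TPM + 1) within each library, with points for set B and set A and the mean with its SD over 6 libraries. Of the 9 pairs, 8 lie on 1 side of 0 in all 6 libraries, and Rpn1 minus Rpn2 spreads across 0.

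Many ER genes are induced by the unfolded protein response through promoter elements bound by ATF6 with NF-Y and by XBP1, so the promoters of the genes were read, although no binding was measured in these cells. RefSeq promoters (build GRCm38.p6, 250 bases before to 50 after the start site) were found for 23 of the 32 genes. Both strands were searched for ERSE (CCAAT and CCACG with 9 bases between them), ERSE-II (ATTGG and CCACG with 1 base between them), UPRE (TGACGTGG), the CCAAT box alone and the CCACGT core. The opposite-strand CCAAT box overlaps ERSE-II. A gene was counted once if any of its promoter windows held the motif. The CCACGT core was present in 6 of 23 genes (26.1%), Ssr3, Krtcap2, Srprb, Sec63, Ssr1 and Spcs1. It was present in 9.40% of 27025 genes with a promoter and in 10.6% of the 16787 protein-coding ones. The CCAAT box was present in 13 of 23 (56.5%), against 41.1% of all and 42.3% of protein-coding genes. ERSE-II was present in 1 of 23, Krtcap2, against 0.0444% of all and 0.0596% of protein-coding genes. ERSE and UPRE were present in 0 of 23, against 0.137% and 0.714% of all genes. These are matches of letters and say nothing of binding. Shown are the only ERSE-II match (Krtcap2), the core in the highest signal peptidase gene (Spcs1), the only promoter with 2 copies of the core (Ssr1), and the highest gene of all, with no match to the 5 motifs (Sec61b). Capitals mark the matches.
Krtcap2: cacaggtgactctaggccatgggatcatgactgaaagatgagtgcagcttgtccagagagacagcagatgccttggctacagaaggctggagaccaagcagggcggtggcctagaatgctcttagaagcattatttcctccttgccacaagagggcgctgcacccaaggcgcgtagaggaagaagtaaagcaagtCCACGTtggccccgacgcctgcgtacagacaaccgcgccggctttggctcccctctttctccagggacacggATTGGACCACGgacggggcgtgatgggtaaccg
Spcs1: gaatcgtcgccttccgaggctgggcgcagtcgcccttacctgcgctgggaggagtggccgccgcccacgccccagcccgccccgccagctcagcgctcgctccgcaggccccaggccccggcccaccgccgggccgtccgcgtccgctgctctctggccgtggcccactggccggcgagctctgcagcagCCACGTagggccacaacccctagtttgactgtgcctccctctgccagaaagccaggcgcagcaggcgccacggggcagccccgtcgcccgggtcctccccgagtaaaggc
Ssr1: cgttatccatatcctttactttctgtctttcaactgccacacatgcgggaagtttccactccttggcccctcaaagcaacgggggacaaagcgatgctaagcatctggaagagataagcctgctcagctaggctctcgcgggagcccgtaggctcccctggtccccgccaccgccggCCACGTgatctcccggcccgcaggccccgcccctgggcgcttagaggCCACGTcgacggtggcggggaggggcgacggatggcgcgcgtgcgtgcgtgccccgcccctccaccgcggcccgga
Sec61b: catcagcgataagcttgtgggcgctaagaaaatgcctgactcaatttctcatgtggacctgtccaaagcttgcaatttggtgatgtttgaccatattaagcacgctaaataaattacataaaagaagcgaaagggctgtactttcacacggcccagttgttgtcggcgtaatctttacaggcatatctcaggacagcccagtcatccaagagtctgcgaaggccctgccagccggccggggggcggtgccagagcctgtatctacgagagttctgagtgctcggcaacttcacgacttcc
The windows are chr3:89246223-89246522 on the plus strand for Krtcap2, chr14:31001617-31001916 on the minus strand for Spcs1, chr13:37994159-37994458 on the minus strand for Ssr1 and chr4:47474411-47474710 on the plus strand for Sec61b, each read 5′ to 3′ in the direction of the gene. In Krtcap2 the ERSE-II match covers bases 268 to 278 of the window and the core bases 196 to 201. The ERSE-II match thus begins 17 bases after the start site. Another Krtcap2 window, chr3:89246188-89246487, holds the core at bases 231 to 236 and no ERSE-II. In Spcs1 the core covers bases 191 to 196, and in Ssr1 bases 178 to 183 and 225 to 230. Mean levels of the 6 genes with the core ran from 3.35 TPM (Sec63) to 64.3 TPM (Krtcap2), thus over most of the range of the 32 genes.

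Genes of the same pathway outside the 32 were detected in part. The 12 names listed for other SRP, receptor, channel and oligosaccharyltransferase genes include Srpra, another name of Srpr. Of these names 10 were among the counted symbols, and 5 had at least 1 TPM in all 6 libraries. Srpr, the receptor's alpha subunit, was highest at 29.4 ± 4.81 TPM, with 1.34% of its counts expected from background. The SRP genes Srp54a, Srp54b and Srp54c averaged 0.446, 0.0083 and 1.01 TPM. None of them exceeded 3 times the expected background in every library, and how reads with several alignments were counted is not given. The 27 names listed for insertases of multipass and tail-anchored proteins include alternative names of the same gene, such as Asna1 and Get3. Among the counted symbols were 23 of these names, and 16 reached 1 TPM in all libraries. Tmem147, a partner of the channel, led at 51.5 ± 12.8 TPM. Emc1, Emc4 and Emc8 had no counts, and their exons lie 99.7% to 100% within other genes, which leaves their expression unknown. Of 26 genes for the glycan donor and its first trimming, 12 reached 1 TPM in all libraries, led by the lectin chaperone Calr at 23.6 ± 8.37 TPM. Dolk and Dpm1 had no counts, and their exons lie 97.1% to 100% within other genes, so their expression is unknown too. Both nascent chain factors reached 1 TPM in all libraries, and Btf3 was the higher at 16.0 ± 5.35 TPM. The RNA of SRP itself was barely seen, with 0 counts for Rn7s1 and 13 counts for Rn7s2 in all 6 libraries together, and 49.0% of the exon length of each lies within other genes.

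Between the sets, no single one of the 32 genes passed the test, while most had a fold change below that of the median tested gene. All 32 were among the 8723 genes tested with edgeR's quasi-likelihood test (TMM scaling), and 0 were called in either direction at an adjusted p under 0.05. Over all genes the test called 1 higher (0.0115%) and 0 lower (0%) in set B. At an unadjusted p under 0.05, 0 of the 32 were higher, against 16.1% of all genes tested, and 4 were lower (Srp9, Sec11c, Ddost and Ssr4), against 9.76%. The log2 fold change was below 0 for 29 of the 32, compared with 50.3% of all tested genes. The median fold change was -0.38 for the 32 genes and -0.004 for all tested.

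The direction of the median turned with the scale. The median log2 ratio of set B to set A over the 32 genes was -0.39 with TMM, -0.36 with RLE size factors and -0.24 in CPM, but 0.09 in TPM and 0.61 in TPM over a total without ribosomal RNA. The median of all tested genes moved along with it, at -0.01, 0.03, 0.19, 0.53 and 1.07 on the same 5 scales. A scale multiplies all genes of a library alike, so the difference between the medians hardly depends on it and its sameness over scales is no support. With TMM that difference was -0.38 (log2), with 28 of the 32 below the median of all genes. Without replicate 5 the difference over the 5 scales shrank to between -0.18 and -0.19, with 25 of 32 genes below. Replicate 5 also had the lowest share of counts in these genes, 0.0850%, against 0.124% to 0.144% in the other 5 libraries. Its background was the highest and its number of protein-coding genes at 1 TPM or more, 11358, exceeded the 5007 to 6989 elsewhere. Acinar markers lay the same way and further, with a median log2 fold change of -1.44 and 8 of 10 lower at an unadjusted p under 0.05. The part of background, ribosomal RNA and other cell types in these differences was not tested.

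**Figure D3:**
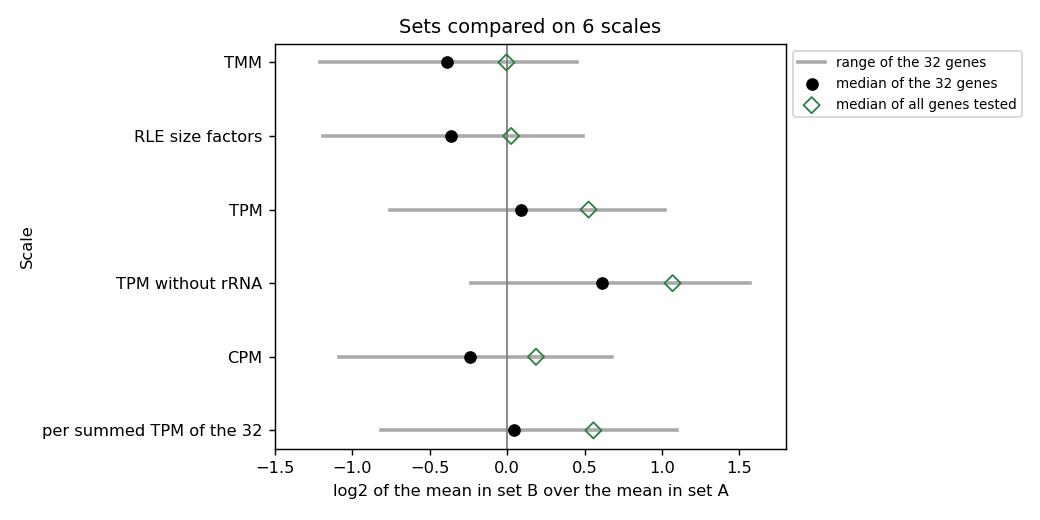
Log2 ratio of the mean in set B to the mean in set A on 6 scales, the last being the level per summed TPM of the 32 genes. Bars give the range of the 32 genes, dots their median and diamonds the median of all tested genes, which lies above the dot on each scale.

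The 4 genes with an unadjusted p under 0.05 did not overlap between the sets. Srp9 had 20.2, 9.12 and 25.0 TMM-scaled CPM in replicates 4 to 6 of set B, against 45.0, 41.4 and 39.2 in replicates 1 to 3 of set A, a log2 fold change of -1.21 (SE 0.36, edgeR adjusted p = 0.0943). Sec11c had 57.3, 31.8 and 56.8 in set B, against 96.2, 84.0 and 77.7 in set A, a log2 fold change of -0.82 (SE 0.29, edgeR adjusted p = 0.118). In both genes each set B library lay below each set A library, with replicate 5 lowest. Ddost had 29.5, 8.29 and 24.1 in set B, against 44.9, 48.1 and 34.1 in set A, a log2 fold change of -1.03 (SE 0.42, edgeR adjusted p = 0.157). Ssr4 had 126, 53.9 and 108 in set B, against 171, 168 and 149 in set A, a log2 fold change of -0.76 (SE 0.33, edgeR adjusted p = 0.19). In all, 8 of the 32 genes were lower in every set B library than in every set A library, namely these 4 with Dad1, Sec61a1, Spcs2 and Srp14, while 17.2% of all tested genes were. None of the 32 was higher in this way, as 15.5% of all tested genes were. In TPM, 6 genes were higher without overlap (Rpn1, Sec11a, Sec61g, Sec62, Spcs3 and Tusc3, against 33.3% of all tested genes) and 3 lower (Sec11c, Srp14 and Srp9, against 5.9%). Over a total without ribosomal RNA, 18 were higher (61.6%) and 0 lower (1.18%), and Sec11c was then among the higher genes. On that scale the log2 ratio of set B to set A was -0.23 for Srp9 and -0.09 for Ddost, the only members below 0, and 0.19 for Sec11c and 0.23 for Ssr4, whose direction thus turned. The mean of Rpn1 was higher in set B on each of the 5 scales. Its log2 ratio was 0.37 with TMM, 0.83 in TPM and 1.35 without ribosomal RNA in the total. With TMM the gene did not pass edgeR's test (adjusted p = 0.488). Replicate 5 of set B, at 23.5 TMM-scaled CPM, lay below set A at 29.7 to 31.7.

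Which libraries entered decided the calls. Without replicate 5, edgeR called 3 of the 32 lower in set B (4.07% of all tested genes) and 1 higher (4.04%). The lower genes were Srp9 at a log2 fold change of -0.91 (edgeR adjusted p = 0.00366), Ddost at -0.68 (0.0324) and Sec11c at -0.61 (0.0262), and the higher was Rpn1 at 0.61 (0.0236). Without replicate 4, 3 were called lower (Srp9, Ddost and Ssr2), against 5.72% of all tested genes, and 0 higher, against 16.9%. Leaving out any of the other 4 libraries left 0 calls among the 32. DESeq2 with all libraries called Srp9 lower, at an adjusted p of 0.0196, with 1.73% of all tested genes, and edgeR with no filter on low counts did so too (adjusted p = 0.040), with 0.682% of them. Over the fits that left out 1 library, the log2 fold change ran from -1.51 to -0.91 for Srp9, from -1.48 to -0.68 for Ddost, from -1.06 to -0.61 for Sec11c and from -1.10 to -0.49 for Ssr4. That of Rpn1 ran from 0.060 to 0.61, the low end without replicate 4 (edgeR adjusted p = 0.925). The size thus depended on the libraries used. Srp9, Ddost, Sec11c and Ssr4 were picked as not overlapping between the sets on this scale, so their direction could hardly turn.

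**Figure D4:**
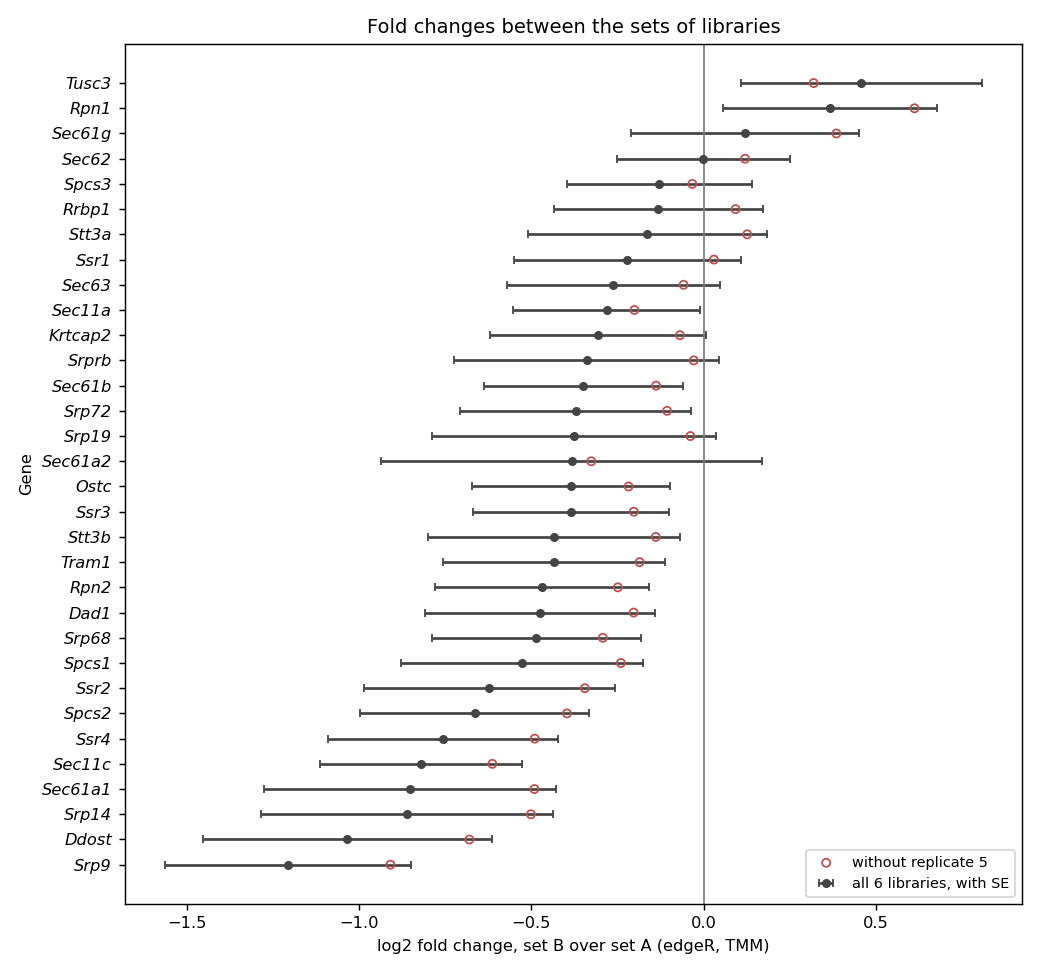
Log2 fold change of each of the 32 genes, set B minus set A, from edgeR with TMM scaling and its SE, with all 6 libraries and without replicate 5. Of the 32 values with all libraries 29 lie below 0, from -1.21 for Srp9 upward.

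The make-up of the machinery was also compared between the sets, on a measure that does not depend on the library total, the share of each gene in the summed TPM of the 32. Rpn1 took 2.702, 2.60 and 2.50% in replicates 4 to 6 of set B, against 1.37, 1.5 and 1.63% in replicates 1 to 3 of set A, a ratio of 1.73. Its partner Rpn2 took 2.10, 2.65 and 2.81% in set B, against 2.76, 2.47 and 2.40% in set A, and overlapped. Srp9 took 0.890, 0.821 and 1.13% in set B, against 1.70, 1.59 and 1.69% in set A, a ratio of 0.570. In all 3 set B libraries Rpn1 was thus above, and Srp9 below, each set A library, in replicate 5 as in the others. Within the channel, Sec61b took 15.6, 16.8 and 14.4% in set B, against 14.1, 14.5 and 14.9% in set A, and overlapped. Sec61g took 6.76, 6.64 and 7.60% in set B, against 5.26, 4.54 and 4.63% in set A, and Sec61a1 2.40, 1.30 and 1.94% in set B, against 2.86, 2.54 and 2.62% in set A, both without overlap. Neither passed edgeR's test on levels (adjusted p = 0.850 for Sec61g and 0.237 for Sec61a1). With all libraries Rpn1 and Srp9 did not pass it either (adjusted p = 0.488 and 0.0943). Shares of 1 total cannot all move the same way. On this measure 5 of the 32 did not overlap and were higher in set B (Rpn1, Rrbp1, Sec61g, Sec62 and Tusc3; 25.4% of all tested genes) and 7 were lower (Ddost, Sec11c, Sec61a1, Spcs2, Srp14, Srp9 and Ssr4; 6.71%). The median log2 ratio of set B to set A was then 0.56 for all tested genes and 0.04 for the 32. Dividing by the sum of the 32 sets this offset, so both percentages are no like background for these counts. With 3 libraries against 3 the exact two-sided permutation test cannot go below p = 0.1. A gene with no overlap always has that value, so for these 12 genes the test adds nothing. Of these 12, Tusc3 had most of its counts expected from background. The genes singled out in this paragraph were chosen after their values were seen.

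**Figure D5:**
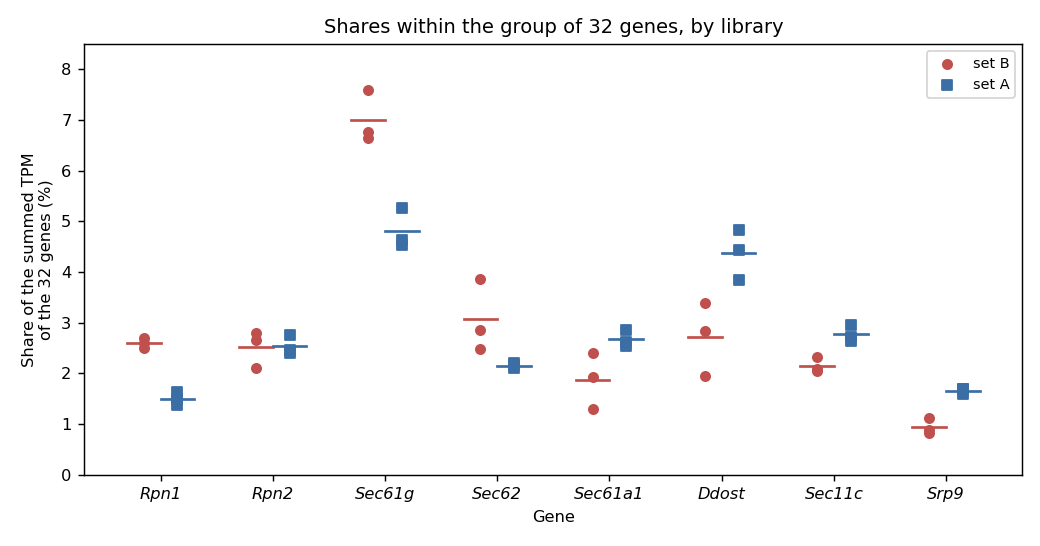
Share of 8 genes in the summed TPM of the 32 genes, in percent, with points for each library of set B and set A and lines for the set means. Rpn1 and Sec61g lie higher in set B, Srp9, Ddost and Sec61a1 lower, and Rpn2 overlaps.

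The difference within the ribophorin pair rests on the same TPM values as the shares above, so it is no separate observation. Rpn1 minus Rpn2 was 0.35, -0.02 and -0.16 in replicates 4 to 6 of set B, against -0.94, -0.67 and -0.52 in replicates 1 to 3 of set A (log2), a difference of 0.76 with no overlap (exact two-sided permutation p = 0.1, adjusted p = 0.45 over the 9 pairs). Sec11c minus Sec11a was 1.84, 1.46 and 1.97 in set B, against 2.30, 2.23 and 2.27 in set A, a difference of -0.51 (exact p = 0.1, adjusted p = 0.45). Among the pathway lists, 0 genes were called between the sets. At an unadjusted p under 0.05, 1 of 7 tested genes of the other SRP, receptor, channel and oligosaccharyltransferase list was lower in set B, as were 4 of 19 insertase genes, 2 of 23 glycan genes and 2 of 2 nascent chain factors, and 0 genes of these lists were higher. Over all tested genes 9.76% were lower and 16.1% higher at that threshold.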

How the data were processed

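RNA was measured in 6 libraries of sorted acinar cells. The authors deposited raw counts per gene, whole numbers with no normalization, 1 file per library. Per the submitters' processing notes, reads were handled with Trim Galore 0.6.4, FastQC, STAR 2.7.9a, SAMtools and featureCounts on build mm10; the annotation, strand setting and treatment of reads with several alignments are not given in the sources used here. Per the file headers the counted interval of a gene is its span, so counts include introns. In the labels the molecule is genomic DNA, whereas their protocol is one for RNA.

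TPM was computed from the counts with the joined exon length of GENCODE vM21, found for 55144 of 55367 symbols with 99.9977% of the counts, scaled to all genes, those for ribosomal RNA included. Unspliced RNA or DNA in introns thus raises the TPM of genes with long introns. Expected background was the gene span times the counts per Mb of 1491 olfactory and vomeronasal receptor genes (13.0 Mb, 7561 counts). Pairs were tested with a pseudocount of 1, flipping the signs of the 6 differences in all 64 ways (exact, two-sided). For the sets, edgeR 4.0.16 was used (quasi-likelihood test, TMM, genes kept by filterByExpr, Benjamini-Hochberg over all genes tested) with DESeq2 1.42.0 as an alternative, in R 4.3.3. Levels, promoters and figures used Python 3.11.15 with numpy 2.4.6, pandas 2.3.3 and matplotlib 3.10.9. Tested on simulated data for set B minus set A (8383 genes), edgeR called 72.16% of 97 genes changed 4-fold and 6% of 100 changed 2-fold, and 10.59% of its calls were unchanged genes.

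The members, lists and tests were chosen with earlier results of these data known. All members are named; values in every library are given for the highest member of each role, both genes of each pair, and members with an unadjusted p under 0.05 and no overlap between the sets. Other genes are named as a partner in a pair, as the highest of a pathway list, or to account for genes with no counts or few.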

Additional observations from a re-analysis of the deposited data

Results flagged for a closer look

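Of 44 values tested for a library far from the others (levels, pair differences and the summed level of the 32 genes), 5 stood apart by Dixon's criterion for 6 samples, and chance alone marks about 1 in 20. Replicate 5 was the low library for Sec61a1, at 7.33 TPM against 15.5 to 20.1 TPM in the other 5 libraries. It was also low for Srp14, at 5.46 TPM against 12.8 to 15.6 TPM. In replicate 5 Tram2 stood high, at 3.50 TPM against 0.237 to 0.842 TPM, and the difference Tram1 minus Tram2 was therefore lowest there, at 3.24 against 4.82 to 5.43 (log2). Tram2 is a gene with 39.5% of its counts expected from background, and replicate 5 had the highest background. Replicate 6 was the high library for Ssr3, at 21.1 TPM against 15.2 to 16.9 TPM.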

How the results depend on the processing

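No paired analysis was possible because all libraries belong to 1 group and replicate numbers recur in no other. Background limits Sec61a2 and Tusc3 in replicate 5, where it was expected to give 99.8% and 173% of their counts. The median level of the 32 genes was 14.1 TPM, and 5.27 TPM with gene span as the length, 29.4 CPM without length scaling, 23.9 TPM over a total without ribosomal RNA and 21.1 TPM by principal transcript. The number of genes at 10 or more in every library was 15, and 5 by span and 24 in CPM. By span, Stt3a minus Stt3b was 0.36, Srp9 minus Srp14 0.69, Srp68 minus Srp72 -0.26 and Rpn1 minus Rpn2 0.65, each with its sign turned. In CPM the first 3 of these also turned, to 0.014, 1.66 and -0.19. By principal transcript Srp9 minus Srp14 turned to 0.97, and Rpn1 minus Rpn2 was -0.69 and passed the threshold. With exon length free of other genes Srp9 minus Srp14 was -0.18 and did not pass. The length used sets these changes by construction. The other pairs and settings (background subtracted, pseudocount of 0.1, no ribosomal RNA in the total) kept sign and side. With 5 libraries no exact p can pass, and leaving out each in turn gave -0.46 to -0.21 for Rpn1 minus Rpn2, 1.95 to 2.12 for Sec11c minus Sec11a, 3.18 to 3.53 for Sec61a1 minus Sec61a2, 2.06 to 2.20 for Sec62 minus Sec63, 0.69 to 0.81 for Srp68 minus Srp72, -0.43 to -0.29 for Srp9 minus Srp14, -0.90 to -0.81 for Stt3a minus Stt3b, 4.69 to 5.13 for Tram1 minus Tram2 and -2.84 to -2.65 for Tusc3 minus Magt1. Between the sets, edgeR called 1 gene of all tested higher and 0 lower in set B. DESeq2 called 519 higher and 206 lower, and edgeR with no filter on low counts called 790 higher and 203 lower, each with 1 of the 32 genes (Srp9) lower. Leaving out each library in turn, edgeR called 0 to 1656 genes higher and 0 to 561 lower in set B, with 0 to 1 of the 32 higher and 0 to 3 lower, the highest numbers without replicate 4 (1656 and 561) and without replicate 5 (366 and 369). The cause was not tested. RLE scaling and leaving ribosomal RNA out before the fit changed no call among the 32 genes. For the share of Rpn1, log2 ratios of set B to set A ran from 0.73 to 0.86 when a library was left out. Those for the share of Srp9 ran from -0.96 to -0.72. Neither sign could turn, since these shares do not overlap between the sets.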

Other observations

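The 32 genes varied less between libraries than the acinar markers did in TPM. The median coefficient of variation over 6 libraries was 17.5% for the 21 of the 32 genes that averaged at least 10 TPM, 22.0% for the 662 protein-coding genes at that level and 36.6% for the 10 acinar markers. Over a total without ribosomal RNA the same medians were 26.1%, 26.5% and 24.6%, so the order of the 3 groups turned with the total used.

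Summed over the 32 genes, the level was 784, 563 and 798 TPM in replicates 4 to 6 of set B and 702, 746 and 652 TPM in replicates 1 to 3 of set A, and the sets overlapped. Over a total without ribosomal RNA the sums were 1508, 1200 and 1589 TPM in set B and 924, 1037 and 953 TPM in set A, with no overlap.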
